A study of Mus musculus with 8 samples.

Results

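Reelin signalling was examined in the developing mouse cortex through 8 genes: Reln, Trp73, Lhx1, Lhx5, Calb2, Dab1, Lrp8 and Vldlr. They were found by exact match of the gene symbol, and all 8 were present among the 23284 gene symbols counted. RNA was sequenced from dorsal cortex at E15.5, with 4 libraries labelled wild type (WT) and 4 labelled ErbB4 knock out (KO), all from C57BL/6 mice. ErbB4 is a receptor tyrosine kinase for neuregulins, and the comparison asks which transcripts of the fetal cortex differ when it is missing. ErbB4-/- mice die early unless they carry an ErbB4 transgene driven in the heart by the alpha-MHC promoter, and whether the WT mice carried it is not stated. Each mutant line was kept as a homozygous colony of its own, so genotype and colony cannot be told apart. The meninges and the ganglionic eminences were dissected away. Neither the litters nor the number of embryos behind a library is stated, so p-values measure only the spread between these samples.

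Cajal-Retzius cells are early neurons of the cortical marginal zone, just under the meninges. They secrete reelin, a large extracellular glycoprotein that directs the placement of radially migrating neurons. Reelin binds the lipoprotein receptors Lrp8 (ApoER2) and Vldlr on migrating neurons, the receptors cluster, and Src-family kinases phosphorylate the cytoplasmic adaptor Dab1, which passes the signal on. Trp73, Lhx1 and Lhx5 are transcription factors used to mark Cajal-Retzius cells, and Calb2 encodes calretinin, a calcium-binding protein of these cells and of some interneurons. In bulk tissue, fewer cells of a type and less RNA per cell cannot be told apart.

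None of the 8 genes differed between the groups at an adjusted p under 0.05 (edgeR quasi-likelihood test with Benjamini-Hochberg adjustment), where 0.0272% of the 14696 genes tested were called. DESeq2 and limma-voom also called 0 of the 8. At an unadjusted p under 0.05, Dab1 and Vldlr were the 2 of 8 that passed in each of the 3 tools, against a background of 5.53% of all genes with edgeR. Both were higher in the libraries labelled KO, Dab1 by 1.14-fold and Vldlr by 1.16-fold. Vldlr was the 1 gene of 8 whose groups did not overlap, with every library labelled KO above every WT library, a pattern found in 1.86% of all genes tested. The fitted difference was positive in 6 of the 8 genes, with a median log2 fold change of 0.10, and 49.2% of all genes tested had a positive value, with a median of -0.0022. With the level of the sex-linked transcript Xist as a covariate, Reln, Trp73, Lhx1 and Lrp8 turned negative and Calb2 positive.

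Sequences just before the RefSeq start sites are printed for the ligand and for Trp73 and Lhx1, the Cajal-Retzius factors whose levels moved together across libraries. Each is 250 bases long, written 5′ to 3′ on the gene's own (minus) strand, and was placed by exact match in NCBIM37 (mm9), the build of the authors' alignment. Capitals mark GGGCGG (the GC box), searched on both strands as GGGCGG or CCGCCC. The Reln window lies at chr5:21850524-21850773, the Trp73 windows at chr4:153513985-153514234 for the upstream start and chr4:153471283-153471532 for the internal start, and the Lhx1 window at chr11:84339037-84339286.
Reln: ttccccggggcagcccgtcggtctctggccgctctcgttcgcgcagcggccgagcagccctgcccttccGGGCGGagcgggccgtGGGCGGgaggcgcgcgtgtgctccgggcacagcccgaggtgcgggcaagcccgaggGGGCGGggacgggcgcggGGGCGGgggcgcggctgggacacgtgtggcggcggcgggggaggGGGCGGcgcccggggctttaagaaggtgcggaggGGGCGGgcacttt
Trp73, upstream start: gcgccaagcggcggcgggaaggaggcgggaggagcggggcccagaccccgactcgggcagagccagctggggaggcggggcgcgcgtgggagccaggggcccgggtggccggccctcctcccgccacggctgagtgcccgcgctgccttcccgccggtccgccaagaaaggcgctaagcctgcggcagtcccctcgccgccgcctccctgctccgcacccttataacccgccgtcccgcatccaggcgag
Trp73, internal start: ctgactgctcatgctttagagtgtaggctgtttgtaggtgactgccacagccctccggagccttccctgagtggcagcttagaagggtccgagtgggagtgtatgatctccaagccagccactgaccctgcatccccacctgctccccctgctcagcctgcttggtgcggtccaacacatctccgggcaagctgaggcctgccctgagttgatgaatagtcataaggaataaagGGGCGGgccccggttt
Lhx1: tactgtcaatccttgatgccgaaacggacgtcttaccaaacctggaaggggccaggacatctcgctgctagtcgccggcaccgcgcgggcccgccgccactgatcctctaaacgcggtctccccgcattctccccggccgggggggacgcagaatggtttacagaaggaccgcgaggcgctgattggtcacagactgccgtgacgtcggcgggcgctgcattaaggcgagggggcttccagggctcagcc
The Reln window held 6 GC boxes and 37 CG dinucleotides, where 32.7% of 32851 windows of the same length held at least 1 box, 4.1% held at least 4, and the median was 6 CG. The Trp73 upstream window held 31 CG and the Lhx1 window 26, both without a box, whereas the internal Trp73 window held 6 CG and 1 box. TAATTA, a core recognised by many homeodomain proteins, was in none of these 4 windows and in 4.8% of all windows. The Trp73 starts lie 42.7 kb apart and give proteins with and without the N-terminal transactivation domain, and the counts sum reads from both.

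Reln, the ligand, spans 5:21390272-21850523 on the minus strand. Its normalised level was 127, 171, 169 and 200.0 CPM (counts scaled to library size with TMM factors) in WT replicates 1 to 4 and 190.4, 232, 178 and 183 CPM in KO replicates 1 to 4, from 3553 to 9381 reads a library. The lowest library was WT replicate 1 and the highest KO replicate 2, and the groups overlapped. Mean levels were 167 ± 30.1 CPM in WT and 196 ± 24.4 CPM in the libraries labelled KO (SD, n = 4 each). The log2 fold change of 0.23 (SE 0.12, 95% interval -0.04 to 0.50) did not pass (edgeR p = 0.0837, adjusted p = 0.81), and the two-sided exact permutation p was 0.20. Without WT replicate 1 the log2 fold change was 0.12, and without WT replicate 4 it was 0.33.

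**Figure D1:**
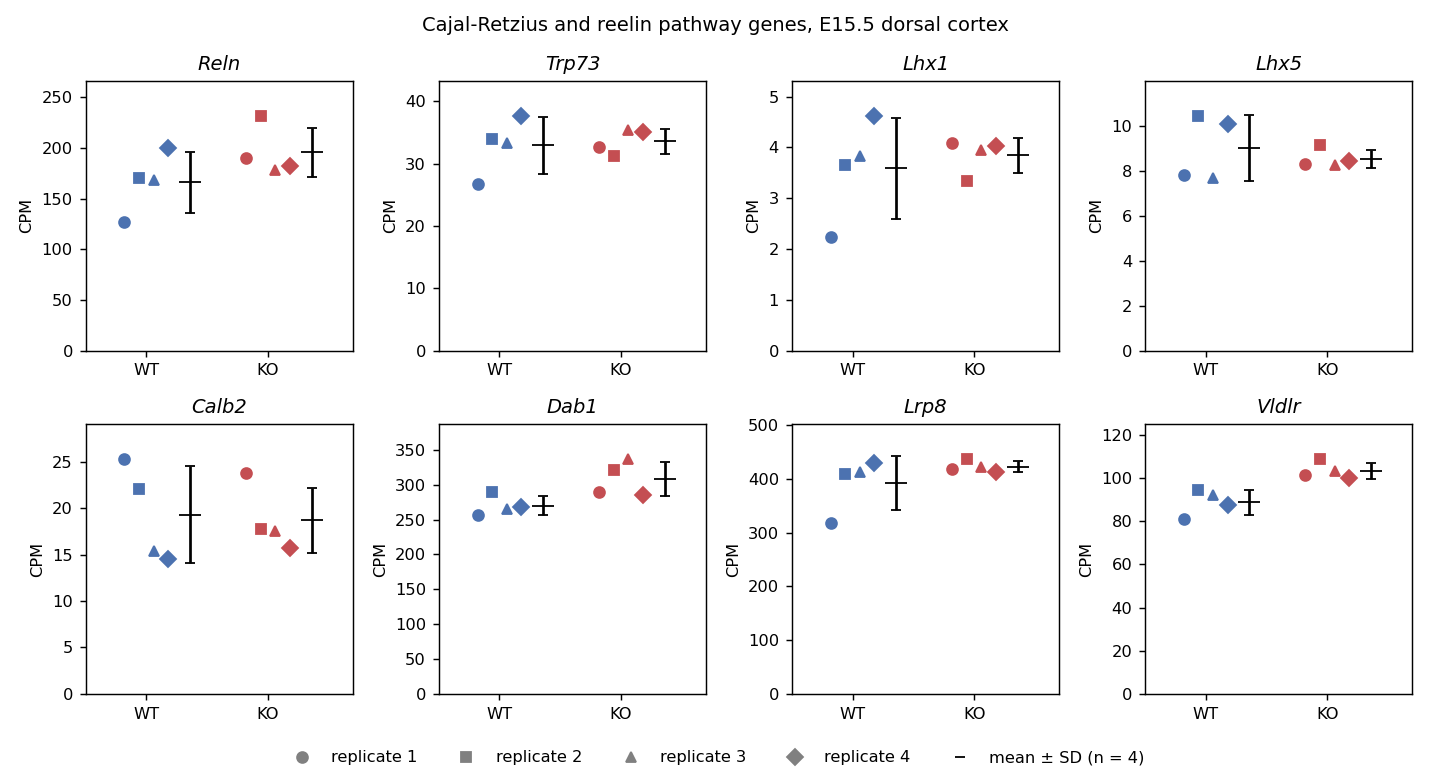
Normalised level of each of the 8 genes in every library (CPM, vertical axis from 0), with WT libraries in blue, libraries labelled KO in red, marker shape for the replicate number and bars for the mean ± SD (n = 4). Vldlr is the panel in which the 4 KO points (99.8 to 109 CPM) lie above the 4 WT points (81.0 to 94.3 CPM), and WT replicate 1 is the lowest point in 6 of the 8 panels.

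None of the Cajal-Retzius transcription factors passed the test. Trp73, a p53-family factor needed for Cajal-Retzius cell survival, lies at 4:153430358-153514317 on the minus strand. It had 26.7, 34.0, 33.3 and 37.6 CPM in WT replicates 1 to 4 and 32.7, 31.2, 35.3 and 35.0 CPM in the libraries labelled KO. The KO values lay inside the WT range, whose ends were WT replicates 1 and 4. The log2 fold change was 0.03 (SE 0.10, 95% interval -0.19 to 0.24, edgeR adjusted p = 0.96). As a fold, this interval is 0.879 to 1.18, and it holds only for this fit, which has no term for sex. With Xist as a covariate the Trp73 log2 fold change was -0.15 (SE 0.14).

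Lhx1, a LIM-homeodomain factor at 11:84331479-84338923 on the minus strand, was the least abundant of the 8, with 63 to 201 reads a library. Its WT levels were 2.25, 3.66, 3.83 and 4.62 CPM, and those of the libraries labelled KO were 4.08, 3.33, 3.94 and 4.03 CPM. As with Trp73, WT replicate 1 was lowest, WT replicate 4 highest, and the KO values fell between them. The log2 fold change of 0.09 had the widest interval of the 8 genes (SE 0.19, 95% interval -0.32 to 0.51, edgeR adjusted p = 0.918). Leaving out WT replicate 1 turned the log2 fold changes of both genes negative, to -0.06 for Trp73 and -0.07 for Lhx1.

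Lhx5, the paralog of Lhx1 at 5:120881895-120891466 on the plus strand, had 7.81, 10.4, 7.66 and 10.1 CPM in WT and 8.32, 9.13, 8.27 and 8.42 CPM in the libraries labelled KO. Here WT replicates 1 and 3 were low and WT replicates 2 and 4 high, with all KO values between the pairs. Its log2 fold change was -0.08 (SE 0.12, 95% interval -0.34 to 0.19, edgeR adjusted p = 0.889). The difference became 0.0014 without WT replicate 2 and -0.15 without WT replicate 3.

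Calb2, on the minus strand at 8:112661402-112692110, varied most between libraries of a group beside Lhx1. Values of 25.3, 22.0, 15.4 and 14.5 CPM in WT stood against 23.8, 17.8, 17.5 and 15.7 CPM in the libraries labelled KO. WT replicate 1, the lowest library for 6 of the genes, was the highest of all 8 libraries here. The coefficient of variation was 26.9% in WT and 18.8% in the libraries labelled KO, and the log2 fold change of -0.04 (SE 0.18, 95% interval -0.44 to 0.35, edgeR adjusted p = 0.968) changed sign to 0.12 without WT replicate 1.

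Lrp8, the receptor also called ApoER2 (4:107474866-107549445, plus strand) had 317, 409, 412 and 429 CPM in WT and 419, 436, 422.6 and 413 CPM in the libraries labelled KO. Apart from WT replicate 1, all libraries fell between 409 and 436 CPM, and the groups overlapped. The log2 fold change was 0.11 (SE 0.08, 95% interval -0.07 to 0.29, edgeR adjusted p = 0.81) and 0.02 without WT replicate 1.

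Vldlr, the very low density lipoprotein receptor (19:27290974-27328721, plus strand) had 81.0, 94.3, 92.3 and 87.5 CPM in WT and 101, 109, 103 and 99.8 CPM in the libraries labelled KO. The closest libraries of the groups, WT replicate 2 and KO replicate 4, were 94.3 and 99.8 CPM. Mean levels were 88.8 ± 5.90 CPM in WT and 103 ± 3.85 CPM in the libraries labelled KO (SD, n = 4 each). The log2 fold change of 0.22 (SE 0.06, 95% interval 0.08 to 0.35) gave an edgeR p of 0.00398 and an adjusted p of 0.81. The two-sided exact permutation p was 0.0286, the smallest that the 70 assignments of 4 against 4 libraries allow. The log2 fold change was between 0.18 and 0.25 when any 1 library was left out.

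Dab1, the adaptor at 4:103291964-104417449 on the plus strand, had 257, 289, 266 and 268 CPM in WT and 289.8, 321, 336 and 286 CPM in the libraries labelled KO. All KO libraries but replicate 4 were above the highest WT library, replicate 2. Mean levels were 269.8 ± 13.8 CPM in WT and 308 ± 24.5 CPM in the libraries labelled KO (SD, n = 4 each). A log2 fold change of 0.19 (SE 0.07, 95% interval 0.05 to 0.33) had an edgeR p of 0.0128, an adjusted p of 0.81 and a two-sided exact permutation p of 0.0571. Leaving out 1 library gave log2 fold changes of 0.15 to 0.23. The low end was without KO replicate 3, where the unadjusted edgeR p was no longer under 0.05, at 0.0537. That library had the highest Dab1 and also held choroid plexus transcripts (22336 reads of Ttr against 16 to 388 elsewhere).

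**Figure D2:**
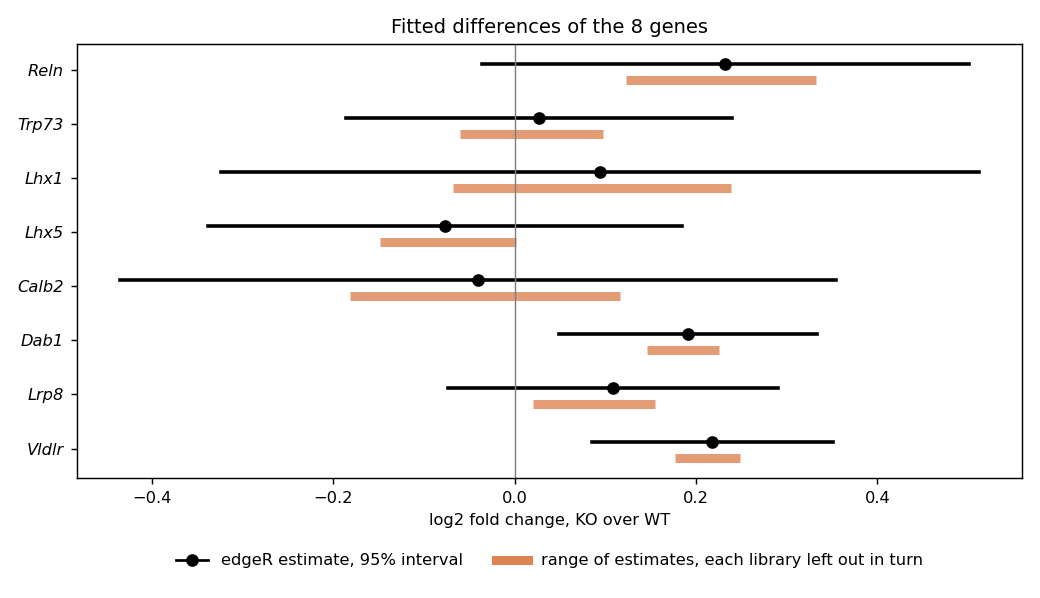
Log2 fold change of KO over WT (horizontal axis) for the 8 genes, with black points and lines for the edgeR estimate and its 95% interval and orange bars for the range of estimates when each library was left out in turn. The intervals of Vldlr (0.08 to 0.35) and Dab1 (0.05 to 0.33) lie above 0, and the other 6 cross it.

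Per kilobase of longest annotated transcript, the WT order was Lrp8 at 59.2 CPM per kb, Dab1 at 50.03, Reln at 14.2, Calb2 at 13.5, Vldlr at 11.1, Trp73 at 6.52, Lhx5 at 3.29 and Lhx1 at 0.888 CPM per kb. The libraries labelled KO had the same order. Lrp8 and Dab1 overlapped in WT and were separate in KO. Reln overlapped with Calb2, and Calb2 with Vldlr, in both groups. Every other step, from Dab1 to Reln and from Vldlr down, was separate in both groups. Of the receiving side, Lrp8 and Dab1 were thus above the ligand per kilobase. The receptor Vldlr was below the ligand in mean, at 10.2 to 11.8 CPM per kb against 10.8 to 17.1 for Reln in WT. In KO, Vldlr was at 12.5 to 13.6 and Reln at 15.2 to 19.8 CPM per kb. Vldlr was also below Lrp8 in every library: the ratio of Lrp8 to Vldlr CPM was 3.92 to 4.91 in WT and 4.02 to 4.14 in KO (two-sided exact permutation p = 0.171). The ratio of Reln to Trp73, the ligand relative to a Cajal-Retzius factor, was 4.75 to 5.32 in WT and 5.05 to 7.43 in KO (two-sided exact permutation p = 0.171). Lhx5 over Lhx1 ranged from 2.0 to 3.48 in WT and from 2.04 to 2.74 in KO, and Calb2 over Reln from 0.0727 to 0.199 and from 0.0767 to 0.125 (two-sided exact permutation p = 0.343 and 0.514). Reln over Dab1, ligand over adaptor, was 0.494 to 0.746 in WT and 0.530 to 0.722 in KO (two-sided exact permutation p = 0.714), and the p-values of these 5 ratios were not adjusted.

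One library stood apart in a way that touched these genes. In WT replicate 1, each gene's deviation from its mean over all libraries fell with transcript length (Spearman rho across genes -0.579, against 0.0374 to 0.223 in the other 7 libraries). It was the lowest library for 6 of the 8 genes, whose longest transcripts measure 4039 to 11702 nt, and the highest for Calb2, whose longest transcript of 1430 nt is the shortest of the 8. With each library's length trend removed, the log2 fold changes were 0.13 for Reln, 0.15 for Dab1 and 0.14 for Vldlr (edgeR adjusted p = 0.723, 0.697 and 0.697). The Vldlr groups then overlapped, at 85.6 to 99.9 CPM in WT and 95.9 to 104 CPM in KO, through WT replicate 1, the other WT libraries being at 85.6 to 90.8 CPM. WT replicate 1 was still the lowest library for Trp73 (29.3 CPM), Lhx1 (2.39 CPM) and Lrp8 (374 CPM), became the lowest for Lhx5 (7.55 CPM) and was no longer the lowest for Reln, Dab1 and Vldlr.

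**Figure D3:**
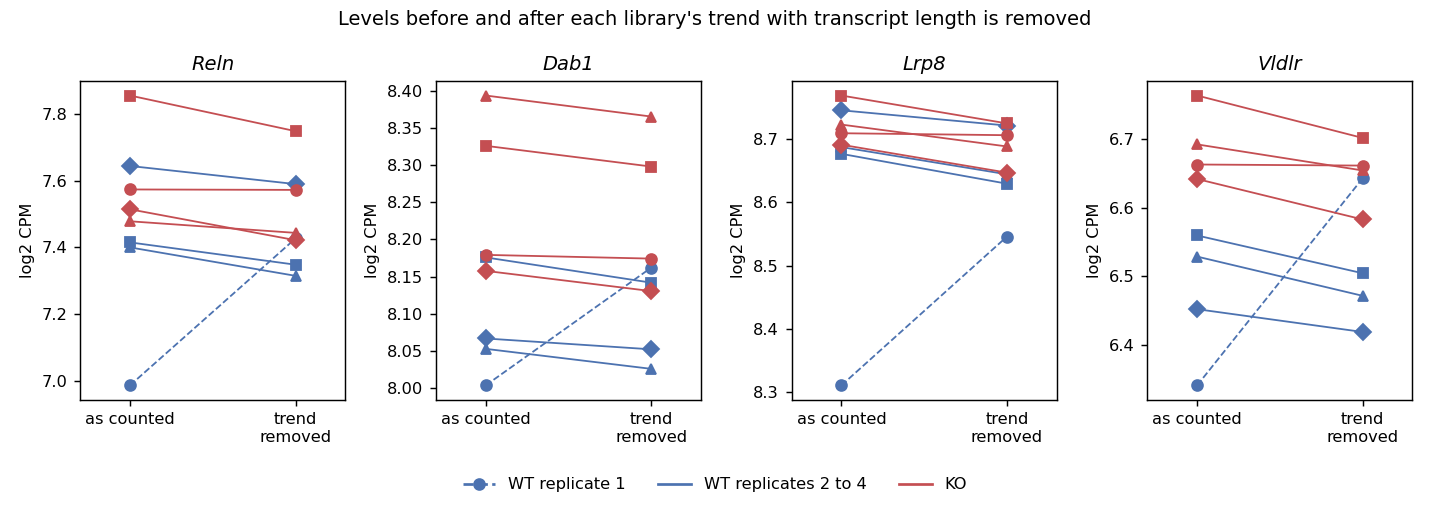
Level of Reln, Dab1, Lrp8 and Vldlr in each library (log2 CPM, vertical axis, not starting at 0) as counted and after the trend with transcript length was removed, with WT libraries in blue, libraries labelled KO in red and WT replicate 1 dashed. WT replicate 1 goes from the lowest point of each panel as counted to a place among the other libraries for Reln, Dab1 and Vldlr, while for Lrp8 it stays the lowest at 374 CPM against 396 to 423.2 CPM, and the lines of the other 7 libraries move less.

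Libraries also differed in sex-linked transcripts. Xist was at 983 to 1687 CPM in WT replicates 1 to 3 and at 2.70 to 3.82 CPM in WT replicate 4 and in all libraries labelled KO, whereas the Y-linked Ddx3y was at 0.257 to 0.495 and 76.4 to 80.9 CPM. Sex class and genotype thus coincide in 7 of the 8 libraries, and with WT replicate 4 alone on the WT side there is no replicate for a comparison within the Y-linked class. The differences between the labelled groups, those of Dab1 and Vldlr included, therefore cannot be told apart from sex. Its Reln (200.0 CPM) and Lrp8 (429 CPM) lay inside the KO ranges of 178 to 232 and 413 to 436 CPM. Its Dab1 (268 CPM), Vldlr (87.5 CPM) and Calb2 (14.5 CPM) were below all KO libraries, and its Trp73, Lhx1 and Lhx5 were above them. With the Xist level as a covariate, Reln was at a log2 fold change of -0.0019 and Lrp8 at -0.0013, and Dab1 and Vldlr were at 0.21 and 0.25 (edgeR adjusted p = 1.00 for each).

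Across the 8 libraries, of which WT replicate 1 carries the length trend, the genes fell into a few patterns, given here as Pearson r of log2 CPM without tests. Trp73 and Lhx1 moved together (r = 0.96), also over the 7 libraries without WT replicate 1 (0.84) and with the length trend removed (0.89). Only 11 of 13279 genes had a higher r with Trp73 than Lhx1 did, and 170 did without WT replicate 1. Dab1 and Vldlr followed each other with r = 0.87, 0.84 and 0.81 in the same order, and 148 genes had a higher r with Dab1 than Vldlr did, or 321 without WT replicate 1. Reln went with the receptor gene Lrp8 (r = 0.90, and 0.91 without WT replicate 1, and 0.67 with the length trend removed). Its r with Trp73 was 0.58, and it was -0.33 without WT replicate 1 and -0.08 with the trend removed. The genes most like Reln over the 8 libraries were Rfx5 (0.99), Fyco1 (0.98), 1700021K19Rik (0.97), Frmd6 (0.97) and Syt9 (0.96), and 109 of 13279 genes had an r over 0.9 with it. Those most like Trp73 were Tbcd (0.99), Vangl2 (0.99), Bicd2 (0.98), Ftsjd2 (0.97) and Zfp780b (0.97), with 96 genes over 0.9. The genes most like Reln and Trp73 were not sought again without WT replicate 1 or with the length trend removed.

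**Figure D4:**
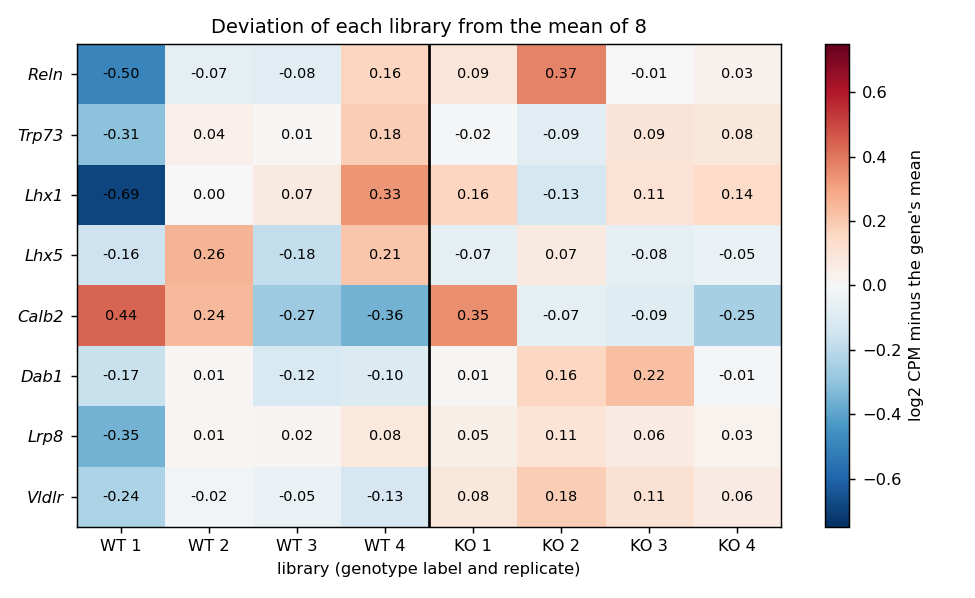
Deviation of each library from the mean of the 8 libraries for each gene (log2 CPM minus the gene mean, printed in the cell and as colour), with genes in rows and libraries in columns. WT replicate 1 is below the mean for every gene but Calb2, and the Trp73 and Lhx1 rows both have their lowest cell in WT replicate 1 and their highest in WT replicate 4.

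Other genes of the pathway were taken from 2 lists. Of 12 genes for reelin cleavage, for binding partners and ligands of reelin and its receptors, and for receptor folding, sorting and turnover, 8 were higher and 4 lower in the libraries labelled KO, with a median log2 fold change of 0.08 and 0 called by edgeR. The 3 most abundant were Efnb2 and Efnb3, ephrins that bind reelin, and Lrpap1, the chaperone of lipoprotein receptors, with log2 fold changes of -0.03, 0.08 and -0.01. Clu, an apolipoprotein ligand of both receptors, was the 1 of 12 at an unadjusted p under 0.05 (edgeR adjusted p = 0.81), a share to be read against the 5.53% of all genes, and is named after its value was seen. It was at 28.01 ± 1.98 CPM in WT and 34.1 ± 6.60 CPM in the libraries labelled KO (SD, n = 4 each). Of 33 intracellular genes, 23 were higher and 10 lower, with a median of 0.03 and 0 called by edgeR. The most abundant were the microtubule protein gene Mapt (0.15), the actin-severing Cfl1 (-0.09) and Cdk5r1 (0.10), which encodes the activator of Cdk5. Pik3r1, a regulatory subunit of PI3-kinase, was the 1 of 33 with an unadjusted p under 0.05 (edgeR adjusted p = 0.81), fewer than the 5.53% of all genes, and is named in the same way. Its levels were 126 ± 9.54 CPM in WT and 147 ± 13.9 CPM in the libraries labelled KO (SD, n = 4 each).

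Further genes used to mark Cajal-Retzius cells were also examined. Of 8, 5 were higher and 3 lower, the median log2 fold change was 0.05, and edgeR called 0. Cacna2d2, a calcium channel subunit gene, was at 0.06, Cxcr4, the receptor for the meningeal chemokine Cxcl12, at 0.08, and the transcription factor gene Nhlh2 at 0.03. The 3 lower genes, named after their values were seen, were Ebf2 at -0.23, Barhl2 at -0.23 and Ebf3 at -0.11. Ndnf, counted under its older symbol A930038C07Rik and named after its value was seen, had 8.40 ± 1.63 CPM in WT and 12.1 ± 3.12 CPM in KO (SD, n = 4 each). Its log2 fold change was 0.53 (SE 0.19, edgeR adjusted p = 0.81), and it was the 1 of these 8 with an unadjusted p under 0.05, against 5.53% of all genes. The summed level of these 8 genes was 180, 226, 208 and 218 CPM in WT and 226, 221, 210 and 211 CPM in KO, so that WT replicate 1 was again lowest and the other 7 libraries overlapped.

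**Figure D5:**
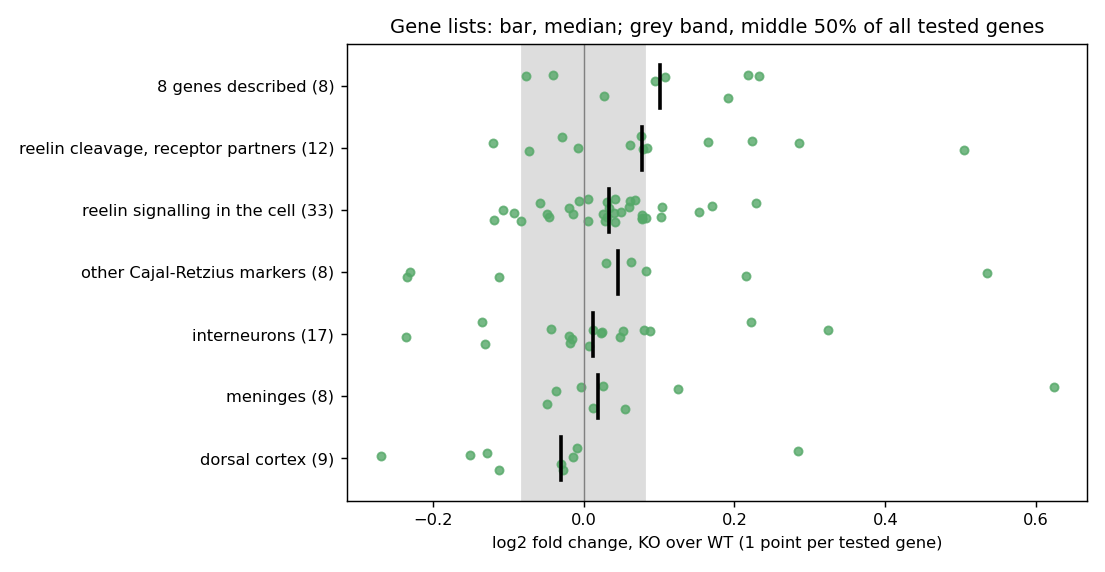
Log2 fold change of KO over WT (horizontal axis) for the 8 genes and for 6 of the other lists, 1 point per tested gene, with a bar at the list median and a grey band over the middle 50% of all tested genes (-0.08 to 0.08). The medians of the pathway and Cajal-Retzius lists are 0.08, 0.03 and 0.05 and that of the 8 genes is 0.10; the band describes single genes and is no yardstick for a median.

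Genes of other tissues and cell types were summed in each library, and their part in the values above was not tested. Of 17 interneuron genes, some of whose cells make Reln and Calb2, 10 were higher and 7 lower with a median of 0.01, and the sums overlapped at 1035 to 1259 CPM in WT and 988 to 1281 CPM in KO. Nr2f2 and Dlx6as1 were the most abundant, with log2 fold changes of 0.01 and 0.05. Meningeal genes summed to 66.2 to 76.6 CPM in WT and 66.6 to 78.6 CPM in KO over all 11 genes, of which 8 were tested (5 higher, 3 lower, median 0.02), led by Cxcl12 (-0.05), Bgn (-0.0039) and Col3a1 (0.01). The 3 genes of this list that were not tested, Aldh1a2, Lum and Slc6a13, had group means of 0.036 to 0.27 CPM, whereas Cxcl12 was at 32.4 CPM in WT and 31.3 CPM in KO and Bgn at 23.0 and 22.9 CPM, so that other genes of the list were present in both groups. Of 9 dorsal cortex genes, 1 was higher and 8 lower with a median of -0.03, and Neurod6 (-0.03) and Neurod2 (-0.03) were among the most abundant. The 9 genes summed to 3671 to 4189 CPM in WT and 3555 to 3982 CPM in KO. Genes of the cortical hem and choroid plexus, the hem being a source of Cajal-Retzius cells, gave 3 higher and 5 lower with a median of -0.02 (8 of 9 tested). Ttr was high in KO replicate 3 alone, and Rspo3 and Rspo2, the next most abundant genes of this list, were at log2 fold changes of -0.03 and -0.10. Of the thalamic genes, 3 of 4 were tested and all 3 were lower (Lhx9 -0.06, Tcf7l2 -0.09 and Gbx2 -0.60), with a median of -0.09. In the erythroid list 3 of 7 were tested, Alas2 (0.21) was higher and Hbb-y (-1.72) and Hba-x (-1.23) lower, and the median was -1.23. EdgeR called 0 genes in each of these 6 lists, and at an unadjusted p under 0.05 there were 1 of 17, 0 of 8, 2 of 9, 2 of 8, 0 of 3 and 2 of 3 in the order given, against 5.53% of all genes. These genes included Sst at a log2 fold change of -0.23 and Pax6 at -0.27 (edgeR adjusted p = 0.81 for each), both named after their values were seen, with Ttr and Folr1 in the hem and choroid list and Hbb-y and Hba-x in the erythroid list.

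Library totals were 28205703 to 38346416 counts in WT and 31574536 to 48871480 counts in KO, with TMM factors of 0.994 to 1.01. Erbb4, the targeted gene, was at 8.99 to 25.3 CPM in WT and 20.7 to 24.6 CPM in the libraries labelled KO, with a log2 fold change of 0.28 (SE 0.23, edgeR adjusted p = 0.812). The lowest value was that of WT replicate 1, and the other WT libraries were at 19.2 to 25.3 CPM, overlapping the libraries labelled KO. Counts over the whole gene therefore did not separate the labels, and every direction given here rests on the labels.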

How the data were processed

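Per the labels and the methods of the study, polyadenylated RNA (RIN above 8) from E15.5 dorsal cortex was sequenced as unstranded 50-nt single-end reads, aligned with HISAT to mm9 and counted with HTSeq. The deposited files hold the authors' raw counts per gene symbol. Tool versions, gene annotation and counting mode are not given in the sources used here. Deposited fold changes and p-values from the authors' DESeq2 run were not used. The genes and lists were chosen with earlier results of these data known.

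Here, genes passing filterByExpr (minimum count 10, minimum total 15) were tested with edgeR 4.0.16 (R 4.3.3) by TMM scaling, glmQLFit and glmQLFTest on genotype alone, with Benjamini-Hochberg adjustment over 14696 genes at 0.05. Log2 CPM used a prior count of 2. Exact permutation tests were two-sided over 70 assignments. DESeq2 1.42.0, limma-voom (limma 3.58.1), other scalings, filters, covariates, a replicate block and leaving out each library were alternatives, and 2 more combinations were added after the data were seen. The length trend was removed with a lowess offset on the longest GENCODE vM1 transcript. Tested on simulated counts for this comparison, edgeR found 48 of 50 genes changed 1.5-fold and 50 of 50 changed 2-fold among 14698 genes. The simulation gave every gene the same dispersion, changed only well-counted genes, and held no length trend or sex difference. Its smallest change, 1.5-fold, was larger than the largest fitted fold of the 8 genes, 1.17 for Reln. The recovery therefore does not measure power for these 8 genes. Start-site windows came from the RefSeq table of GRCm38.p6, in which 6 of the 8 genes matched (Lhx5 and Calb2 did not), and were placed in NCBIM37 by exact match. Besides the 8 genes and Erbb4, the text names from each list any gene called or with groups not overlapping, the 3 of highest mean CPM, and the 5 genes most like Reln and Trp73 of at least 1 CPM; some genes of the lists are not reported here. Clu, Pik3r1, Ndnf, Ebf2, Ebf3, Barhl2, Sst, Pax6, Folr1, Aldh1a2, Lum and Slc6a13 fall outside it and were named after their values were seen.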

Additional observations from a re-analysis of the deposited data

Results flagged for a closer look

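Among 34 sets of 4 libraries (each gene or summed list in each group), 3 had 1 library whose gap to its nearest neighbour took up more of the group's range than the critical value of 0.829; chance alone gives this in about 1 in 20 sets. Lhx5 was at 9.13 CPM in KO replicate 2, the next library being at 8.42 CPM. The summed level of the intracellular reelin genes was 8296 CPM in KO replicate 4, below the next at 8691 CPM. The summed hem and choroid plexus genes reached 648 CPM in KO replicate 3, where the next library labelled KO had 66.8 CPM, and Ttr alone was at 572 CPM there.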

How the results depend on the processing

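No member was called under any of the 19 alternative fits or at an adjusted p threshold of 0.01 or 0.1. Dab1 and Vldlr kept their direction in all 19, with log2 fold changes of 0.15 to 0.23 and 0.14 to 0.25 and adjusted p of 0.431 to 1.00 and 0.22 to 1.00. The unadjusted p was under 0.05 in 16 of 19 fits for Dab1 (not without KO replicate 3 or with the Xist covariate, with or without WT replicate 1) and in 19 of 19 for Vldlr. For Reln it was under 0.05 in 2 of 19, with the replicate block (0.046) and without WT replicate 4 (0.0181). With Xist as a covariate, log2 fold changes reversed to -0.0019 (Reln), -0.15 (Trp73), -0.23 (Lhx1), -0.0013 (Lrp8) and 0.32 (Calb2), and with WT replicate 1 also left out, chosen after the data were seen, to -0.024, -0.16, -0.27, -0.020 and 0.35. With the length trend removed, Trp73 was at -0.0041 and Calb2 at 0.036, and without WT replicate 1 as well (also chosen later) Trp73 was at -0.059, Lhx1 at -0.068 and Calb2 at 0.12. Calb2 was at 0.015 in limma-voom. Leaving out 1 library gave ranges of 0.12 to 0.33 (Reln), -0.060 to 0.10 (Trp73), -0.068 to 0.24 (Lhx1), -0.15 to 0.0014 (Lhx5), -0.18 to 0.12 (Calb2) and 0.02 to 0.15 (Lrp8). The cause of these reversals was not tested.

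Over all genes, 4 were called in the reported fit, 1 with relative log expression factors, upper-quartile scaling, the Xist covariate (also without WT replicate 1) or a threshold of 0.01, 2 with the length trend removed, 25 with DESeq2 and 1 to 13 when 1 library was left out (13 without WT replicate 4). The erythroid list went from 0 called to 1 with DESeq2, and it ranged from 0 to 1 when a library was left out (1 without KO replicate 4). The interneuron median was 0.22 with the Xist covariate and 0.21 also without WT replicate 1, and the median of the intracellular reelin genes was -0.0043 with the length trend removed.

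Replicate numbers were shared by the groups, but the deviations of same-numbered libraries correlated at only 0.0837, 0.135, 0.0476 and 0.0236, so the numbers were not taken as pairs. With a replicate block, 1 gene was called over all genes, and Reln, Dab1 and Vldlr were at 0.24, 0.19 and 0.22 (adjusted p = 0.706, 0.673 and 0.594).

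Counting error alone (from the square root of the count) was 7.05% to 12.6% of the Lhx1 level in a library, with 63 to 201 reads, and at most 1.68% for Reln.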
